A study of Mus musculus with 22 samples.

Results

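The tissue called hbHep was compared with hepatoblastoma tumors in which YAP1 was switched on. The comparison uses 10 of the 17 RNA libraries of the series, chosen by their labels: 6 hbHep libraries, which are 2 technical libraries from each of 3 mice, and 1 library from each of 4 tumors. Averaging the technical libraries left 7 samples, out of 22 libraries in the whole series when 5 libraries of open chromatin are counted. Hepatoblastoma is a liver cancer of early childhood that arises from cells of the developing liver. The title of the series describes tumor cells that turn into hepatocyte-like cells once YAP1 is inhibited. The labels do not tie the hbHep samples to the 4 tumors compared here, which grew in another mouse.

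YAP1 is a coactivator of transcription that has no DNA-binding part of its own and works by joining TEAD proteins on DNA. The Hippo kinases hold it in the cytoplasm, and in liver its activity is known to favor growth and bile duct or progenitor genes over genes of mature hepatocytes. Beta-catenin, encoded by Ctnnb1, carries the Wnt signal to the nucleus, where it works with TCF and LEF proteins, and in normal liver it sets the genes of hepatocytes around the central vein.

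The tumors grew in mice of the B6N.FVB(Cg) strain with the transgene Tg(CAG-rtTA3)4288Slowe, in which the CAG promoter, active in most cell types, drives a reverse tetracycline transactivator, and were taken on doxycycline. All 4 carry the code of 1 mouse, so they are tumors of 1 animal and not separate animals. The hbHep samples were liver of mice labelled FAH Delta Exon 5, with hbHep at day 121 (mouse 1), day 114 (mouse 2) and day 117 (mouse 3). The labels do not say from which event the days are counted, whether those mice were given NTBC or doxycycline, or the age or sex of any animal. RNA came from liver tissue, fresh or flash frozen, so host cells can be part of every sample. Strain, mouse and tumor state change together between the groups and cannot be told apart. Expression of Y chromosome genes differs between the groups as well (below), so sex cannot be told apart from these either. For the estimate of spread the model also held 4 tumors of the tumor strain off doxycycline, labelled YAP1 OFF day 6 and from 1 other mouse (day 6 tumors), and liver of 3 FAH Delta Exon 5 mice on NTBC (FAH liver). The means of those groups are given as reference points.

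Values are abundances, the deposited signal after rescaling between samples, on a scale taken as reads per base of transcript. Mitochondrial genes took 3.54 to 4.24% of the signal in hbHep and 5.27 to 9.11% in the tumors, and the number of reads behind a value is unknown. Of 17953 genes tested on log2(abundance + 1), 9893 (55.1%) passed at a limma adjusted p under 0.05 (Benjamini-Hochberg), of which 5167 (28.8%) were higher and 4726 (26.3%) lower in hbHep. By at least 2-fold 5032 (28.0%) passed, 2527 higher and 2505 lower, and the median log2 fold change of all tested genes was -0.02. In 55.5% of the tested genes all 3 hbHep samples lay above or below all 4 tumors. These are the shares against which each gene list below is read. The 2 technical libraries of a mouse differed by more than 2-fold in 6.93 to 8.43% of genes, hbHep mice in 7.67 to 11.69% and tumors in 3.7 to 5.56%, and of 5032 genes called at 2-fold or more, 1230 had a technical pair apart by that much. With 3 against 4 samples an exact permutation test cannot give a p under 0.0286. The 4 tumors are 1 animal's and the p-values measure the spread between these samples only. Log2 fold changes below are hbHep minus tumors, SE is their standard error, every adjusted p is limma's, and a rise or fall by a number is on the log2 scale.

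YAP1 and the genes it is known to switch on were lower in hbHep. Yap1 (chromosome 9, 7931999 to 8004638) was 5263, 9763, 7842 and 10750 in tumors 1 to 4 and 937.1, 1135 and 1308 in hbHep mice 1 to 3. Every hbHep sample lay below every tumor, at about the level of day 6 tumors (mean 1167) and FAH liver (1266), and the fall was 7.26-fold (log2 -2.86, SE 0.19, adjusted p = 1.71e-08, exact two-sided permutation p = 0.0286). Reads of the animal's own gene and of an introduced copy cannot be told apart in a gene total, for Yap1 as for Ctnnb1 below. Of 24 YAP1 target genes tested 14 fell and 3 rose, with a median log2 fold change of -0.74. Ankrd1 (chromosome 19, 36111965 to 36119844), which encodes a muscle ankyrin repeat protein and is a classic YAP1 target, was 520, 884.8, 562.9 and 855.5 in the tumors and 19.36, 25.68 and 21.65 in hbHep (log2 -4.90, SE 0.60, adjusted p = 6.76e-06). The groups lay more than an order of magnitude apart, and Ankrd1 in hbHep was above its FAH liver mean of 3.923. Ccn2, a matrix-associated signaling protein, ran from 2293 to 2958 in tumors and from 359.4 to 453.1 in hbHep (log2 -2.69), Ccn1, its close relative, fell by 1.40, the cytoskeletal adaptor Ajuba by 2.58 and Amotl2, which binds YAP1, by 1.34. The targets that rose were Nt5e, an enzyme that makes adenosine outside the cell (465.9 to 886.9 in tumors, 2469 to 4386 in hbHep, log2 2.33), the stress gene Gadd45a (0.85) and Dock5 (0.70). In bulk tissue fewer cells of a type and less RNA per cell cannot be told apart, here and below.

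The TEAD partners of YAP1 were lower as well. Among 22 components of the Hippo pathway 14 fell and 1 rose (median -0.65). Tead4 (chromosome 6, 128227143 to 128300813), 1 of the DNA-binding partners, was 246.3, 492.1, 360.4 and 443.9 in tumors and 15.78, 20.7 and 14.5 in hbHep, where it lay at the FAH liver mean of 16.12 (log2 -4.39, SE 0.32, adjusted p = 3.52e-08). Tead1 fell by 1.86 and Tead2 by 1.65. The kinase gene Lats2 fell by 0.66. Wwtr1, which encodes the YAP1 relative TAZ, did not pass, with 1802 to 2149 in tumors and 2208 to 2749 in hbHep (log2 0.25, SE 0.11, adjusted p = 0.0804). The riser was Amotl1 (log2 0.37, adjusted p = 0.0451), a call that was lost without hbHep mouse 1, 2 or 3 or without tumor 2 or 3, with values of 0.28 to 0.43 over all samples left out in turn.

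The promoters of Ankrd1 and Ccn1 are shown because they hold the letters to which TEAD proteins are known to bind, GGAATG, searched on both strands; matches are in capitals, and CATTCC is the same site on the other strand. Each sequence runs 5′ to 3′ along the gene's strand from 250 bases before the start to 50 after it (RefSeq, GRCm38.p6), for Ankrd1 chr19:36119795-36120094 and for Ccn1 chr3:145649936-145650235, both on the minus strand. The first site stands 210 bases before the start in Ankrd1 and 103 in Ccn1. Of 19 promoter windows of YAP1 target genes, 8 (42.1%) held the letters, against 12.8% of 15693 windows of tested genes. The share was 12.6% for windows of genes higher by at least 2-fold and 15.8% for those lower. A gene with more than 1 start has more than 1 window and some genes have none, here and in the promoter counts below. The 24 tested YAP1 target genes had 19 windows, 24 pericentral genes had 18 and 26 mitosis genes had 22. These shares therefore cover only part of each list. A match describes the letters and not binding.
Ankrd1: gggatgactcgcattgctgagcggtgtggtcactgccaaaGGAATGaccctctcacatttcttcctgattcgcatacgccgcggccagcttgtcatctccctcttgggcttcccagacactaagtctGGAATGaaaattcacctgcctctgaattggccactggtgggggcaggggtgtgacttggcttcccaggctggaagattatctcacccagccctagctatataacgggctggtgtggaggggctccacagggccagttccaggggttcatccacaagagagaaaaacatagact
Ccn1: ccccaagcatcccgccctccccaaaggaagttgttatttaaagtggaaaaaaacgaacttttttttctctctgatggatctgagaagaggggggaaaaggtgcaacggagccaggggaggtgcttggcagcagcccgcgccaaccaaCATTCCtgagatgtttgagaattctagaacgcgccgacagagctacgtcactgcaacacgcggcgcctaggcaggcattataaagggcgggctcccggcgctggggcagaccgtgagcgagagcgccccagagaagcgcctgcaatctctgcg

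**Figure D1:**
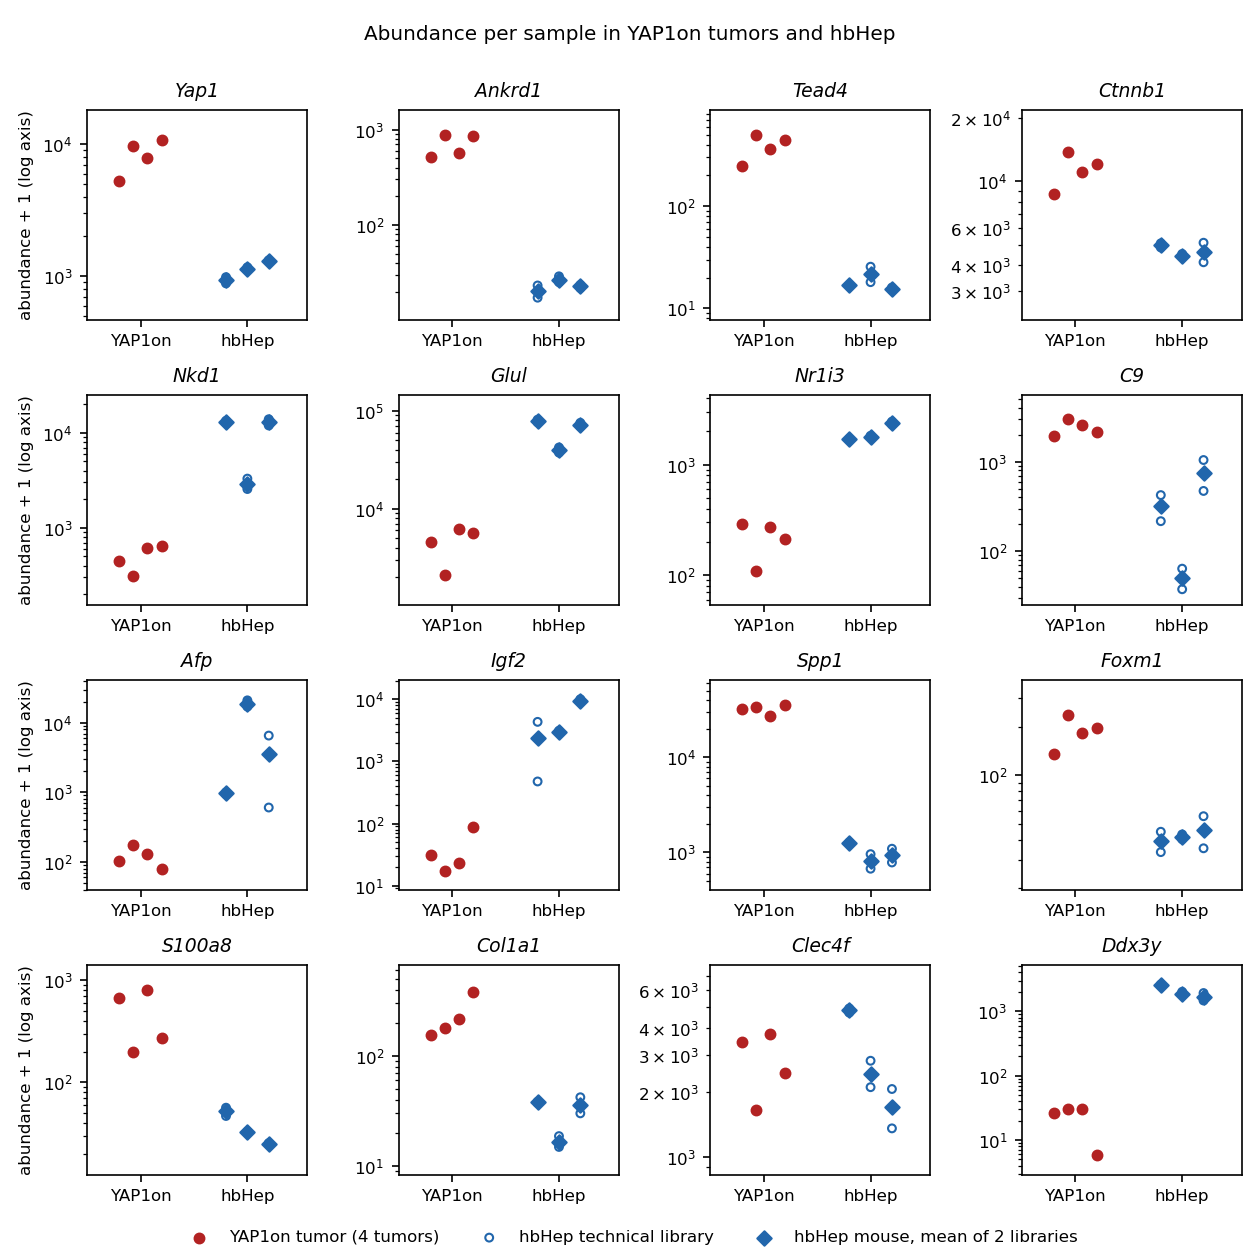
Abundance + 1 on a log axis for 16 genes in the 4 YAP1on tumors (circles) and the 3 hbHep mice (diamonds; open circles are the 2 technical libraries of each mouse). The groups do not overlap except for Clec4f, a Kupffer cell gene, and the open circles lie far apart for Igf2 in mouse 1 and for Afp in mouse 3.

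Genes of the Wnt pathway moved the other way, although Ctnnb1 itself fell. Ctnnb1 was 8673, 13720, 11060 and 12070 in tumors and 4981, 4398 and 4605 in hbHep, with no overlap (log2 -1.27, SE 0.15, adjusted p = 4.21e-06, exact two-sided permutation p = 0.0286). Its hbHep values were still above the FAH liver mean of 2587. Of 25 Wnt pathway genes 14 rose and 2 fell (median 0.52). After quantile normalization 9 rose and 5 fell, without tumor 1 4 fell, and without hbHep mouse 2 or tumor 2, 3 or 4 1 fell. Apcdd1, a membrane inhibitor of Wnt signaling, was 12.71, 11.72, 10.59 and 16.79 in tumors and 568.8, 813.1 and 937.1 in hbHep (log2 5.78, SE 0.24, adjusted p = 8.71e-11). It was as low in day 6 tumors (11.95) and FAH liver (16.72) as in the tumors. Nkd1, an intracellular brake of the pathway, was 446.4, 309.9, 612.1 and 641.1 in tumors and 13130, 2907 and 12910 in hbHep, so that mouse 2 stood below the other hbHep mice but above all tumors (log2 4.03). The secreted Wnt-inactivating enzyme Notum rose by 2.81, the DNA-binding partner Lef1 by 3.49, the target factor Sp5 by 3.09, the receptor Lgr5 by 1.43 and the feedback gene Axin2 by 0.95. Axin2 was 963.7 to 1231 in hbHep, 503.9 to 647.2 in tumors and 84.88 on average in FAH liver. Apc, part of the complex that destroys beta-catenin, passed narrowly (log2 -0.27, adjusted p = 0.0469), and lost the call without hbHep mouse 2 or 3 or without tumor 2, 3 or 4, with values of -0.34 to -0.22 over the samples left out in turn. The ubiquitin ligase gene Rnf43 rose by 0.52 and lost the call without hbHep mouse 1 or 3 or tumor 1 or 3 (0.30 without mouse 3).

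Genes of hepatocytes near the central vein, which depend on beta-catenin, were higher in 21 of 24 cases and lower in none (median log2 fold change 2.55). Their summed abundance was 833000 to 1058000 in hbHep and 133700 to 195300 in tumors. Cyp2a5, a P450, was 2177, 864.1, 2790 and 1532 in tumors and 106700, 160400 and 116000 in hbHep, with no overlap (log2 6.22, SE 0.35, adjusted p = 2.4e-09), and its close relative Cyp2a4, known as female-biased, was 546.5 to 1954 and 4835 to 13490; reads of such similar genes can be shared out wrongly. Cyp1a2, a P450 that handles caffeine and aromatic amines, rose by 5.15 and Rhbg, an ammonium transporter, by 5.74. Slc1a2, a glutamate transporter of these cells, was 641.2, 267.3, 886.3 and 850.3 in tumors and 9765, 6885 and 9311 in hbHep (log2 3.83, SE 0.32, adjusted p = 1.29e-07). Its FAH liver mean was 577.9, lower than 3 of the 4 tumors. The glutamine synthetase gene Glul rose by 3.84 and was 39480 to 79300 in hbHep against 4899 in FAH liver. Tbx3, a beta-catenin target factor, rose by 1.45, and Gulo, an enzyme of vitamin C synthesis, by 2.89. Lect2, a secreted protein, was 2182 to 3772 in tumors and 9118 to 14350 in hbHep (log2 1.95). The count of lower members was 1 without hbHep mouse 1 or tumor 2.

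Periportal genes, which mark the hepatocytes at the other end of the lobule, were higher in 15 of 23 cases and lower in 2 (median 1.09). With the first technical library of each mouse alone 9 were higher and 4 lower, and without hbHep mouse 3 4 were lower. Etnppl, which breaks down phosphoethanolamine, was 174.4, 67.35, 174.6 and 88.97 in tumors and 1918, 2807 and 2911 in hbHep (log2 4.42, SE 0.33, adjusted p = 5.2e-08), far under its FAH liver mean of 11850. Cyp2f2, a P450 of periportal hepatocytes, was 64.6 to 282 and 666.3 to 3349, with technical libraries up to 7.32-fold apart (log2 3.36). The second library was the higher in each mouse (196 and 1441, 445.1 and 885.7, 1692 and 5014). The same order held in all 3 mice for Arg1, Cyp8b1 and Cps1 below, genes picked after their libraries were seen. The cause of this offset was not tested. Sds, a serine-degrading enzyme, was 1092, 410.7 and 1754 in hbHep and overlapped the tumors (158.4 to 507.8, log2 1.59); with the first technical libraries alone it did not pass (0.64, adjusted p = 0.19). G6pc, which releases glucose, fell by 1.19 and the protease gene Ctsc by 1.03. Arg1, the last enzyme of the urea cycle, did not pass (1583 to 2332 and 1800 to 3986, log2 0.44, adjusted p = 0.123) and both groups lay below the FAH liver mean of 31060. Without hbHep mouse 1 its call was gained at a log2 fold change of 0.71.

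The letters CTTTGAT, to which TCF and LEF proteins are known to bind, are shown in the promoter of Sp5 (chr2:70474673-70474972, plus strand), 104 bases before the start. In the promoter of Cyp2a5 (chr7:26835089-26835388, plus strand), a pericentral P450 gene, the capitals mark CAAAGTCC, known from binding of the hepatocyte factor HNF4A, 56 bases before the start. Both strands were searched. CTTTGAT stood in 2 of 18 pericentral promoters (11.1%), in as many of 19 YAP1 target promoters (10.5%) and of 22 mitosis promoters (9.09%), and in 2.85% of all. CAAAGTCC stood in 2 of 18 pericentral promoters and 0 of 31 promoters of plasma protein genes, in 2.59% of the promoters of genes higher by at least 2-fold, 1.64% of those lower and 1.52% of all.
Sp5: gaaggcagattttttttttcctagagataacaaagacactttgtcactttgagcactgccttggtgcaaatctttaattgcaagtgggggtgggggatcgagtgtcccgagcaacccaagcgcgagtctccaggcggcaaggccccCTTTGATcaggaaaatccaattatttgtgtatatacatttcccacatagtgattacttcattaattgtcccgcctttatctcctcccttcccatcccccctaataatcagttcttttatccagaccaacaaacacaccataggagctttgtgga
Cyp2a5: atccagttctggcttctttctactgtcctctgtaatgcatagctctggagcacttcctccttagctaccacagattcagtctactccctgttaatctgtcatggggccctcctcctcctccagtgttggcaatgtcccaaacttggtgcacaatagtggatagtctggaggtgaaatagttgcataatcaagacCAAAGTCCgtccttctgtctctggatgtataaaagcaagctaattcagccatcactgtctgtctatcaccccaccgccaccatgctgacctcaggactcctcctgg

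Hepatocyte transcription factors rose in 15 of 27 cases and fell in 4 (median 0.61), or in 7 after quantile normalization. Nr1i3 (chromosome 1, 171213934 to 171218845), the drug-sensing receptor CAR, was 289.5, 107.7, 270.8 and 213.3 in tumors and 1705, 1779 and 2372 in hbHep, with no overlap (log2 3.22, SE 0.30, adjusted p = 4.26e-07). Cebpa, a factor of mature hepatocytes, was 2297, 3607, 3147 and 3436 in tumors and 13750, 7223 and 17210 in hbHep (log2 1.96), with mouse 2 nearest the tumors. Nr0b2, a repressor of bile acid synthesis, rose by 1.49. Hnf4a, a factor that defines the lineage, did not pass, with 1280 to 2079 in tumors and 1869 to 2609 in hbHep (log2 0.30, SE 0.17, adjusted p = 0.15). Cux2, a homeobox factor known from female mouse liver, fell by 2.81, the pioneer factor Foxa1 by 1.04 and Onecut1, a factor of liver development, by 1.29. Onecut1 rested on mouse 2 (1066, 176.3 and 1106 against 1087 to 1727 in tumors) and lost its call without it (log2 -0.42), as well as without tumor 2 or 4.

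Plasma proteins of hepatocytes split. Of 33 genes 15 rose and 5 fell (median 0.66), and after quantile normalization 9 fell. Apoa2, a protein of high-density lipoprotein, was 14450, 11220, 17680 and 11590 in tumors and 153800, 143700 and 144900 in hbHep (log2 3.45, SE 0.26, adjusted p = 4.4e-08). Coagulation factor gene F11 rose by 2.81 and the thyroid hormone carrier Ttr by 2.04. Alb, the main product of hepatocytes, was high in all samples and overlapped, with 30630, 52440, 57160 and 49280 in tumors and 74700, 54510 and 91500 in hbHep (log2 0.64, SE 0.28, adjusted p = 0.0613); it passed without hbHep mouse 2 (0.84) or tumor 3 (0.75), and FAH liver was at 191200. C9 (chromosome 15, 6445346 to 6498825), the pore protein of complement, went the other way: it was 1927, 3002, 2570 and 2159 in tumors and 320.6, 49.72 and 756.6 in hbHep, lowest in mouse 2 (log2 -3.36, SE 0.58, adjusted p = 0.000164). The fibrinogen chain genes Fgg and Fgb fell by 1.62 and 1.33.

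**Figure D2:**
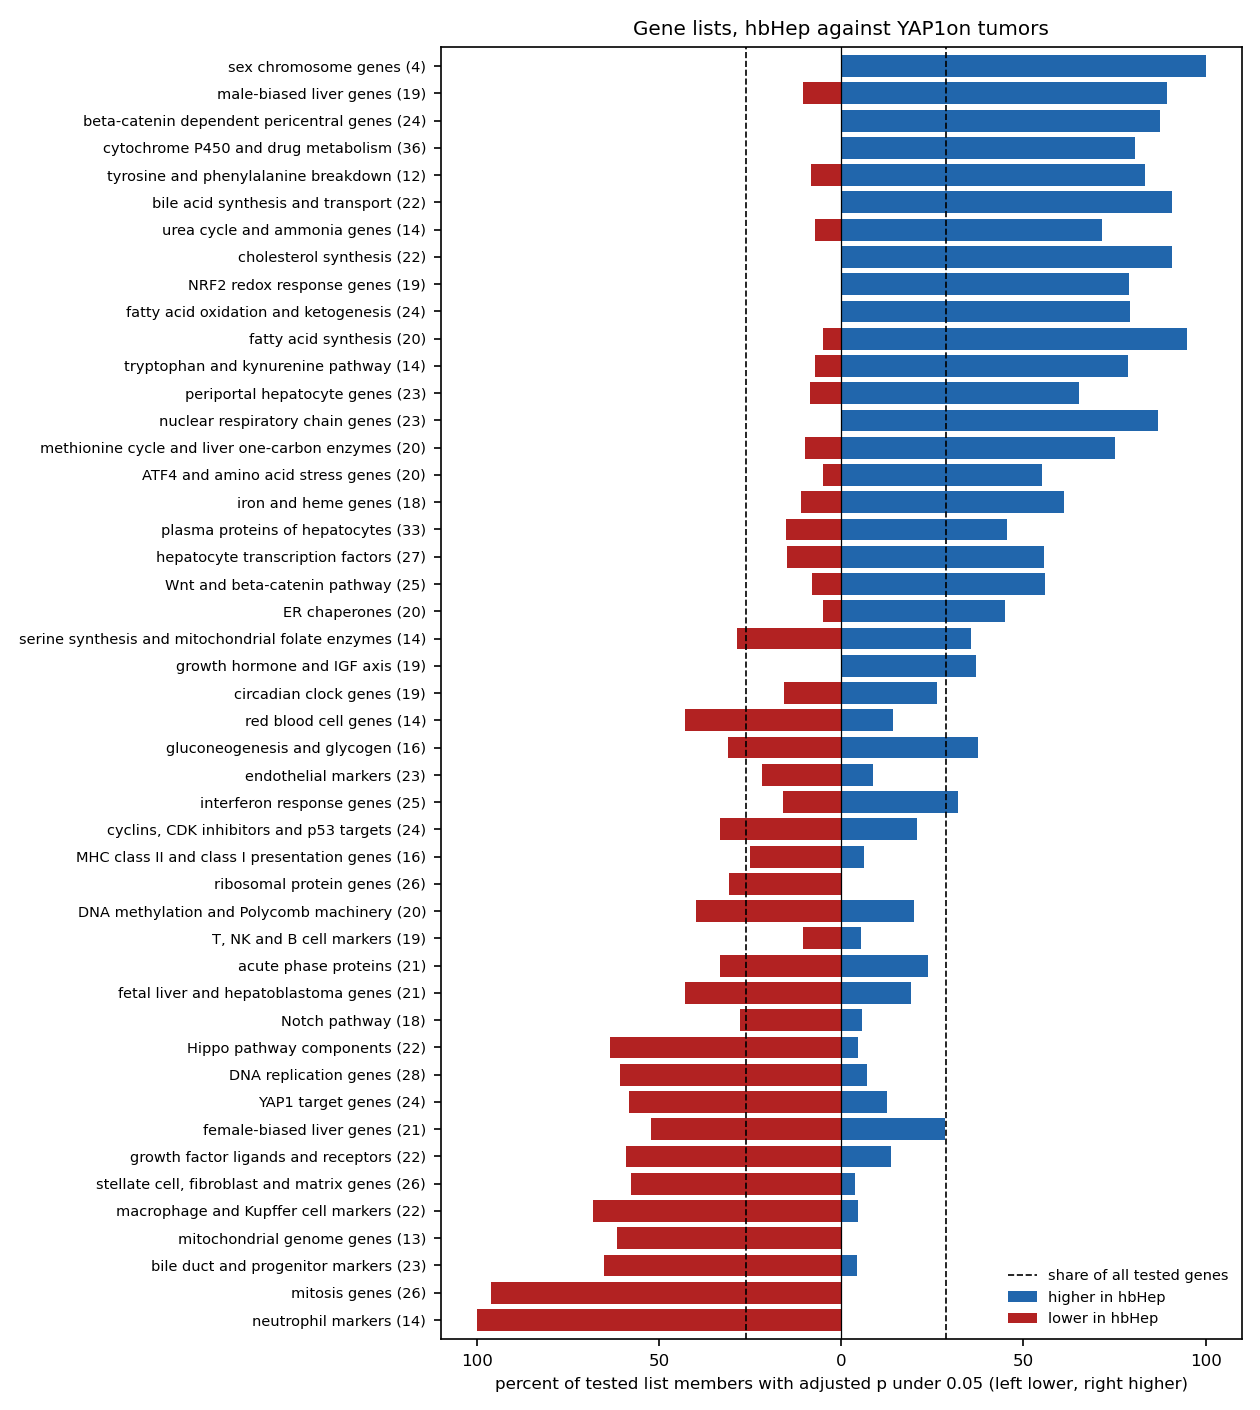
For each of 47 gene lists (number of tested members in brackets) the percent of members lower (left) and higher (right) in hbHep at adjusted p under 0.05, ordered by median log2 fold change; dashed lines mark the shares of all tested genes, 26.3% lower and 28.8% higher. Sex chromosome, male-biased liver and pericentral genes lie at the top (medians 5.34, 2.95 and 2.55), followed by P450 genes (1.96), and neutrophil, mitosis and bile duct lists at the bottom (-2.43, -1.41 and -1.29).

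Metabolic functions of the hepatocyte were higher across most lists. Bile acid synthesis and transport had 20 of 22 genes higher and 0 lower (median 1.51), and cytochrome P450 and drug metabolism 29 of 36 higher and 0 lower (median 1.96). Cyp7b1, an enzyme of the second route to bile acids, was 151.2, 147.7, 184.9 and 143.1 in tumors and 2090, 1001 and 2825 in hbHep (log2 3.53, SE 0.28, adjusted p = 9.12e-08), while FAH liver reached 26790. Cyp7a1, the rate-limiting enzyme of bile acid synthesis, was 3483 to 4784 and 5636 to 17470 (log2 1.31), and did not pass after quantile normalization (0.69, adjusted p = 0.0691). The uptake transporters Slco1a1 and Slco1b2 rose by 3.14 and 2.70, and the bile salt export pump Abcb11 by 1.82. Cyp8b1, which sets the share of cholic acid, did not pass (832.1, 1033 and 2664 in hbHep, 238.1 to 1001 in tumors, log2 1.04, adjusted p = 0.0565) but did without hbHep mouse 1 (1.37) or tumor 2 (1.25). The count of lower P450 genes was 1 without hbHep mouse 1 or tumor 1, 2 without hbHep mouse 3 and 3 after quantile normalization.

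Genes of amino acid breakdown were mostly higher. Tyrosine and phenylalanine genes were higher in 10 of 12 cases, with Hgd, which opens the ring of homogentisate (2521 to 3717 in tumors, 16980 to 23520 in hbHep, log2 2.71), while Fah, the last step of the same pathway, fell. Fah was 1457, 2268, 2407 and 2214 in tumors and 1158, 669.3 and 961.8 in hbHep (log2 -1.18, SE 0.19, adjusted p = 0.000105, exact two-sided permutation p = 0.0286); a value for the whole gene does not show whether exon 5 is missing. Tryptophan and kynurenine genes were higher in 11 of 14 cases, led by Ido2 (47.69 to 70.98 and 547.8 to 757.2, log2 3.40), while Kyat3 fell by 1.22. In the methionine cycle 15 of 20 genes rose and 2 fell. Aldh1l1, a folate enzyme of liver, was 845.2, 1403, 1498 and 1605 in tumors and 7270, 7558 and 7450 in hbHep (log2 2.51, SE 0.20, adjusted p = 6.78e-08). Ahcy, among the fallers there, is taken up below with gene copies. Urea cycle and ammonia genes rose in 10 of 14 cases. Otc and Cps1, the mitochondrial steps of the cycle, did not pass (0.59 and 0.43); Otc passed without hbHep mouse 2 (0.99). The 1 faller, Glud1 (-0.34), lost its call without hbHep mouse 1 or 3 or tumor 2 or 3.

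Serine synthesis, a pathway known from growing cells, went in both directions. Of 14 genes of serine synthesis and mitochondrial folate metabolism 5 rose and 4 fell (median 0.22). Phgdh, the first enzyme of serine synthesis, was 131.9, 251.4, 205.8 and 172.4 in tumors and 11.14, 38.63 and 44.14 in hbHep (log2 -2.74, SE 0.41, adjusted p = 4.22e-05), and the next enzyme, Psat1, fell by 2.13. Shmt2, which uses serine in mitochondria, was 437.2 to 601.4 and 2061 to 2458 (log2 2.11). The cystine transporter gene Slc7a11 was 148.2, 112.6, 141.3 and 129 in tumors and 681.9, 12780 and 1193 in hbHep, highest by far in mouse 2 (log2 4.04).

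Genes of fat and cholesterol metabolism rose together. Fatty acid synthesis had 19 of 20 genes higher, fatty acid oxidation and ketogenesis 19 of 24, and cholesterol synthesis 20 of 22, with 1, 0 and 0 lower (medians 1.14, 1.16 and 1.40). Without hbHep mouse 2, 1 oxidation gene fell. Scd2, a desaturase, was 455.2, 387.1, 695.5 and 555.5 in tumors and 4176, 4975 and 8137 in hbHep, against 383.3 in FAH liver (log2 3.43, SE 0.24, adjusted p = 2.01e-08). Acacb, which makes malonyl-CoA, rose by 3.17, fatty acid synthase Fasn by 2.01, and the cholesterol enzyme Fdps by 1.92. Pnpla3, a lipid droplet hydrolase, fell by 1.47, a call that was lost on log2(abundance + 0.1) (adjusted p = 0.143). In oxidation, Ehhadh was 2793 to 4061 in tumors and 21610 to 24150 in hbHep (log2 2.83) and Acaa1b rose by 3.73, but Cpt1a, which lets fatty acids into mitochondria, did not pass (0.25). Cpt1a passed without hbHep mouse 2 (0.51). Nuclear genes of the respiratory chain rose in 20 of 23 cases (median 1.08), led by Ndufv1 (758.5 to 983.7 and 3017 to 4711, log2 2.01) and Atp5b (1.73).

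Glucose genes had no common direction. Of 16 gluconeogenesis and glycogen genes 6 rose and 5 fell (3 fell without tumor 2 or 3, and 8 after quantile normalization). Glycogen synthase Gys2 was 505.4, 469.4, 684.6 and 578.6 in tumors and 4921, 2825 and 4665 in hbHep (log2 2.86, SE 0.18, adjusted p = 1.03e-08), and the branching enzyme Gbe1 rose by 1.97. Ppp1r3b, which targets phosphatase to glycogen, fell by 1.26 and mitochondrial Pck2 by 1.56. Cytosolic Pck1, rate-limiting for gluconeogenesis, did not pass (-0.42, adjusted p = 0.274), but was lower with the first technical libraries alone (-0.85, adjusted p = 0.021) and after quantile normalization (-1.23, adjusted p = 0.00128). Iron and heme genes rose in 11 of 18 cases and fell in 2: ferritin light chain Ftl1, a gene with near-identical copies and therefore uncertain, was 28860 to 42600 in tumors and 173400 to 297800 in hbHep (log2 2.67), heme enzyme Cpox rose by 2.00, Hamp2, of the hepcidin family, fell by 3.56 and the metal transporter Slc39a14 by 1.52. Hamp, hepcidin itself, did not pass (5813 to 7334 and 2912 to 10910, log2 -0.13).

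Fetal liver and hepatoblastoma genes went in both directions. Of 21 tested genes 4 rose and 9 fell (median -0.39), and without hbHep mouse 2 the number that rose was 2. The share that rose was below the 28.8% of all tested genes, and the share that fell was above their 26.3%. Igf2 (chromosome 7, 142650768 to 142666816), an imprinted fetal growth factor, was 30.62, 16.26, 22.03 and 85.28 in tumors and 2404, 3005 and 9546 in hbHep (log2 6.99, SE 0.54, adjusted p = 6.34e-08), and only 43.51 and 27.24 on average in day 6 tumors and FAH liver. Afp, the fetal albumin relative, was 101.7, 175, 128.9 and 78.82 in tumors and 971.6, 18890 and 3570 in hbHep, with technical libraries up to 10.8-fold apart (log2 5.11, adjusted p = 7.08e-06). Dlk1, a surface protein of hepatoblasts, was 0.7982 to 1.057 in tumors, near 0, and 12.73, 186.3 and 20.87 in hbHep, so mouse 2 was the highest here as for Afp. Among those that fell, the mRNA-binding protein Igf2bp1 was 161.6, 299.4, 181.2 and 236.5 and 9.397, 15.13 and 16.14 (log2 -3.91), Peg10 fell by 3.48 and Gpc3, a surface proteoglycan used to mark liver tumors, was 2977 to 8073 and 241.5 to 1222 (log2 -3.31). All samples of each of these 6 genes lay apart between the groups.

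Bile duct and progenitor markers were lower in 15 of 23 cases and higher in 1 (median -1.29), and their sum was 43740 to 55670 in tumors and 17790 to 19430 in hbHep, most of it Spp1 in the tumors. Spp1 (chromosome 5, 104435111 to 104441053), osteopontin, also made by macrophages, was 32580, 33420, 27390 and 35780 in tumors and 1265, 812.1 and 937.5 in hbHep (log2 -5.02, SE 0.28, adjusted p = 2.34e-09). Sox9, a factor of ducts and progenitors, was 861.3, 1162, 1025 and 1504 and 57.79, 130.2 and 113.4 (log2 -3.54). The keratin Krt7 fell by 2.82, the adhesion protein Epcam by 2.46 and the protease Mmp7 by 3.27, while Krt19 did not pass (20.05 to 66.25 and 22.24 to 47.26, log2 -0.14). Ly6d, a surface protein, was the exception, with 1173, 488.1, 1250 and 715.5 in tumors and 8177, 8103 and 7802 in hbHep (log2 3.24), against 69.47 in FAH liver.

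Cell division genes were lower. Of 26 mitosis genes 25 fell and 0 rose (median -1.41). Foxm1 (chromosome 6, 128362994 to 128375886), a factor that drives mitotic genes, was 134.4, 234.8, 180.7 and 195 in tumors and 38.36, 40.34 and 44.65 in hbHep (log2 -2.13, SE 0.27, adjusted p = 8.01e-06). Cyclin B1, Ccnb1, was 402.2, 441.4, 406.9 and 281.5 and 206.2, 105.6 and 139 (log2 -1.38), and the hbHep values lay between the tumors and the means of day 6 tumors (25.32) and FAH liver (22.34). Mki67, a marker of cycling cells, had the same order: 1288 to 2480 in tumors, 615 to 937.6 in hbHep, 243.8 in day 6 tumors and 69.26 in FAH liver. DNA replication genes fell in 17 of 28 cases and rose in 2 (median -0.73), from the helicase subunit Mcm6 (-2.23) and the nucleotide enzyme Rrm2 (-1.99) to the risers Mcm10 (81.77 to 113 and 163.5 to 634.1, log2 1.99) and Chaf1a (0.87).

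Of 24 cyclins, CDK inhibitors and p53 targets 8 fell and 5 rose. Cyclin D1, Ccnd1, was 3997, 6713, 5451 and 5546 in tumors and 4080, 3630 and 3286 in hbHep (log2 -0.55, adjusted p = 0.00847); the groups overlapped, and both lay above the means of day 6 tumors (878.7) and FAH liver (198.8). The CDK inhibitor Cdkn1a fell by 1.66, although mouse 2 (591.4) came near the lowest tumor, and Bbc3 and Gdf15, known p53 targets, rose by 1.35 and 1.18. Among 20 genes of DNA methylation and Polycomb 8 fell and 4 rose. The demethylase gene Tet1 was 26.01 to 29.77 and 2.983 to 3.16 (log2 -2.86), Ezh2 fell by 0.78, and the Polycomb gene Cbx2 rose by 0.94.

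The Cdk1 promoter (chr10:69352863-69353162, minus strand) is shown for the letters TTTGAA, the CHR element of cell cycle genes, searched on both strands; its 2 matches are in capitals, the first 71 bases before the start. Of 22 mitosis promoters 17 held these letters (77.3%), against 13.5% of all. Cdk1, the kinase that starts mitosis, was 440.3, 681.6, 485.1 and 396.3 in tumors and 237.6, 178.8 and 132.7 in hbHep (log2 -1.46, SE 0.23, adjusted p = 8.36e-05).
Cdk1: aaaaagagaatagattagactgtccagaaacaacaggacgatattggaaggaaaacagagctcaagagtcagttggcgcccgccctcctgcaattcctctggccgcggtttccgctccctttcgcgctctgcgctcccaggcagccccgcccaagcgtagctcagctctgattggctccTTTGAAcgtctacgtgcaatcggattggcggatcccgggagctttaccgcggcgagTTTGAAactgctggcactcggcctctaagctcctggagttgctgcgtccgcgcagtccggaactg

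Growth factor ligands and receptors were mostly lower, 13 of 22 against 3 higher (median -0.91). Tgfb3 was 329.8, 341.8, 413.1 and 535.3 in tumors and 68.66, 49.68 and 48.67 in hbHep (log2 -2.83, SE 0.28, adjusted p = 8.17e-07), and its relative Tgfb2 fell by 2.04. In the ERBB receptor family Erbb2 was 286.2 to 488.9 and 70.05 to 101.6 (log2 -2.28), while Erbb3 rose by 0.93 but did not pass after quantile normalization (0.35, adjusted p = 0.124), when 1 gene of the list was higher. Egfr passed (0.69, adjusted p = 0.0424) but not without hbHep mouse 1 or 3 or tumor 1 or 3. Axl, a receptor kinase known as a YAP1 target, fell by 0.84. Of 18 Notch genes 5 fell and 1 rose, with the ligand Jag1 at 657.1, 1069, 796.5 and 1059 and 261, 188.6 and 202.3 (log2 -2.02). In the growth hormone axis 7 of 19 genes rose and 0 fell (median 0.19). The receptor Ghr was 1468, 1284, 1499 and 1248 and 7335, 4180 and 7503 (log2 2.16); Igf1, its main secreted product, did not pass (3966 to 4840 and 2586 to 5579, log2 -0.09). In that list 3 genes fell without hbHep mouse 2, 1 without mouse 3, 2 without tumor 1 and 5 after quantile normalization.

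Redox genes controlled by NRF2 rose in 15 of 19 cases and fell in 0 (median 1.36). The export pump Abcc4 was 590.4, 674.1, 762.4 and 683.3 in tumors and 6333, 21670 and 11100 in hbHep (log2 4.09, SE 0.28, adjusted p = 1.81e-08), Gclc, which starts glutathione synthesis, was 626.9 to 1083 and 2165, 12160 and 3589 (log2 2.50) and Srxn1 was 145.9 to 400.9 and 654.6, 3086 and 638.4 (log2 2.17). In each of these genes, and in Slc7a11 and Nqo1 (1888, 4866 and 1811), mouse 2 was the highest. Without tumor 1, 1 gene of the list fell. Amino acid stress genes of ATF4 rose in 11 of 20 cases and fell in 1: asparagine synthetase Asns was 51.07, 70.69, 74.26 and 58.03 and 734.8, 715.9 and 776.7 (log2 3.54), above 20.13 in day 6 tumors and 372.6 in FAH liver. ER chaperones rose in 9 of 20 cases and fell in 1, and after quantile normalization 6 fell; Hspa5, the main chaperone, did not pass (2979 to 4659 and 3262 to 5046, log2 0.10).

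Markers of neutrophils, macrophages and stellate cells were mostly lower, whereas those of endothelial cells and lymphocytes were not. Of 14 neutrophil markers 14 fell (median -2.43), and their sum was 1050 to 3216 in tumors and 296.1 to 472.8 in hbHep. S100a8 (chromosome 3, 90669071 to 90670034), a neutrophil protein, was 664.9, 197.8, 794.5 and 272.5 in tumors and 50.8, 31.55 and 23.9 in hbHep (log2 -3.57, SE 0.48, adjusted p = 1.83e-05). Macrophage and Kupffer cell markers fell in 15 of 22 cases and rose in 1 (median -1.17), with sums of 85720 to 93940 and 19310 to 47770 that include Spp1; without hbHep mouse 3, 2 rose. Itgam, of recruited myeloid cells, was 589.4, 468.4, 725.1 and 828.9 and 146.1, 65.87 and 57.44 (log2 -2.94), and Cx3cr1 fell by 2.60. The Kupffer cell genes Clec4f (1654 to 3754 and 1713 to 4836, log2 0.02) and Timd4 (-0.44) did not pass; Timd4 did without tumor 2 (-0.92). Gpnmb, of lipid-laden macrophages and some tumors, rose: it was 113, 78.11, 128.6 and 125.2 and 613.6, 3396 and 296 (log2 2.95), highest in mouse 2.

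Genes of stellate cells, fibroblasts and matrix were lower in 15 of 26 cases and higher in 1 (median -1.06; sums of 44510 to 78480 in tumors and 30420 to 39680 in hbHep). Col1a1, the main fibrillar collagen, was 153, 177, 213.5 and 381.6 in tumors and 37, 15.67 and 35.04 in hbHep (log2 -2.94, SE 0.35, adjusted p = 5.04e-06), and Acta2, smooth muscle actin of activated cells, fell by 3.40. Lrat and Reln, genes of quiescent stellate cells, did not pass (-0.03 and 0.39), nor did Pdgfrb (-0.11). The riser Ngfr (0.64, adjusted p = 0.0325) lost its call without hbHep mouse 1 or 2 or tumor 1, 2 or 4. Endothelial markers were near even, with 2 of 23 higher and 5 lower (median 0.00; sums of 14200 to 18720 and 12230 to 20670), led down by Cd34 (846.3 to 950.5 and 156 to 250.3, log2 -2.11). Without hbHep mouse 3 those counts were 4 and 3, without mouse 1 none was higher, and without mouse 2 or tumor 2 1 was. Of 19 T, NK and B cell markers 1 rose, the plasma cell gene Jchain (93.02 to 247.6 and 798.6, 180.6 and 1301, log2 1.84), which did not pass without hbHep mouse 3, and 2 fell, or 1 without tumor 3 (sums of 730.6 to 1135 and 639.2 to 1833). Red blood cell genes fell in 6 of 14 cases and rose in 2, and without hbHep mouse 3 only 3 fell (sums of 28080 to 60170 and 14610 to 30310). No neutrophil, macrophage, lymphocyte, endothelial or stellate marker in these lists was at 0 in all 7 samples. The part of these cells in the differences above was not tested.

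Inflammatory genes varied. Of 21 acute phase genes 7 fell and 5 rose: Orm2, a lipocalin of plasma, was 428.2, 147.6, 483.9 and 388.6 in tumors and 4065, 4305 and 2250 in hbHep (log2 3.36, SE 0.36, adjusted p = 1.67e-06), while Fgl1, a liver fibrinogen relative, was 10570 to 15830 and 2343 to 3258 (log2 -2.26). Saa1 did not pass and ranged over 311.2 to 2091 in hbHep and 959 to 1810 in tumors. Interferon response genes rose in 8 of 25 cases and fell in 4, and without hbHep mouse 1 the number that fell was 10. Usp18, a brake of interferon signaling, was 260.9, 320.2, 276.1 and 295.1 and 1616, 1080 and 1029 (log2 2.08), whereas Ifit2 fell by 1.13. Of 16 antigen presentation genes 1 rose and 4 fell, while 4 rose and 1 fell without hbHep mouse 2, none rose without mouse 1, 2 rose without tumor 4 and 9 fell after quantile normalization. Cd74, the invariant chain of MHC class II, was 10830, 3199 and 11700 in hbHep and 8894 to 12620 in tumors.

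Clock genes set hbHep mouse 2 apart from the other 2 mice. Arntl, which encodes the activator BMAL1, was 95.9, 986.9 and 98.61 in hbHep mice 1 to 3 and 463.9 to 606 in tumors, and Dbp, a clock output gene, was 3041, 116.1 and 3748 and 334.7 to 609.9. Neither passed (adjusted p = 0.0547 and 0.197), and both did without mouse 2 (log2 -2.43 and 2.87). Per1, a repressor of the clock, fell by 1.55. Of 19 clock genes 5 rose and 3 fell, and without mouse 2 the counts were 8 and 6. The labels give no hour of collection.

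Genes with a sex bias in mouse liver differed widely, and so did the genes of the Y chromosome. Ddx3y, a Y-linked helicase, was 25.03, 29.32, 29.42 and 4.821 in tumors and 2561, 1880 and 1691 in hbHep (log2 6.70, SE 0.44, adjusted p = 1.24e-08). Its mean was 16.34 in day 6 tumors and 2705 in FAH liver. Eif2s3y was 0.7683 to 2.799 and 392 to 598.8 and Uty 41.74 to 89.84 and 992.3 to 1115, and all 4 tested Y genes rose. Male-biased liver genes rose in 17 of 19 cases and fell in 2 (median 2.95), and female-biased genes fell in 11 of 21 and rose in 6 (median -0.79). Cyp2b9, a female-biased P450, was 205.3, 172.1, 352.4 and 213.9 in tumors and 0.5665, 0 and 1.279 in hbHep (log2 -7.22, SE 0.52, adjusted p = 2.86e-08), and the day 6 tumors reached 3835 and FAH liver 1.442. Elovl3, a male-biased fatty acid elongase, was 0 to 0.5912 and 13.43 to 56.19, and the male-biased Selenbp2 and Mup20 went against the list, with log2 fold changes of -5.32 and -2.19; Mup20 did not pass without hbHep mouse 2 or tumor 1. Sex, strain and tumor state cannot be told apart for these genes or for any other gene here. Cyp7b1, Slco1a1, Cux2 and Hamp2 above also stand in the sex-biased lists.

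The widest differences belonged to gene copies. The 10 largest rises and 10 largest falls were taken among genes with a mean of at least 500 in the higher group and no overlap. The rises included Rps13-ps1, Gm20594, Gm4737, Rps3a2, Gm6768 and Gm15459 and the falls included Rpl15-ps3, Gm10288, Gm26992, Rps6-ps4, Gm10163 and Hist1h4m, most of them processed copies or unnamed models. Of 220 tested symbols ending in -ps or -rs 18.2% were called and past 8-fold, of 1603 symbols of the form Gm and a number 10.9%, and of 16130 other genes 3.16%. Rps13-ps1 was 4004, 3376 and 2981 in hbHep and listed at 0 in every tumor, while its parent Rps13, a ribosomal protein gene, was 198.5 to 315.7 in hbHep and 5887 to 15740 in tumors. Rpl3-ps1 averaged 7594 in hbHep and 7.948 in tumors and Rpl3 365 and 8434, so that the means of both genes together were 7959 and 8442. In the other direction Rpl15-ps3 was listed at 0 in every hbHep sample and 1867 to 4374 in tumors. Day 6 tumors stood with the YAP1on tumors (Rps13-ps1 2.101, Rpl15-ps3 1801) and FAH liver with hbHep (4705 and 0).

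Of 111 copies with a tested parent 66 were called, and 23 of them had a parent called in the opposite direction. Symbols ending in -ps or -rs were called no more often than all tested genes (55.1%). With so many genes called in both directions, some opposite pairs arise without any link between copy and parent. Whether 23 is more than that was not tested, so the count does not show a general swap. Opposite changes were also seen for 2 enzymes and their copies. Ahcy, which clears S-adenosylhomocysteine, was 2674 to 3171 in tumors and 168.2 to 364.9 in hbHep, and Gm4737 was 9.999 to 25.01 and 25850 to 48650. Eno1, the enolase of glycolysis, was 2093 to 3229 and 1136 to 1359, and Eno1b 4.344 to 16.64 and 6817 to 7848. Most such copies share nearly all letters with the parent, and reads can be shared out wrongly between them. Falls of single genes such as Ahcy, Eno1, Rpl3 (-4.51) and Rplp0 (-4.19), and of the ribosomal list (8 of 26 lower, 19 after quantile normalization), are therefore uncertain. Without tumor 1, 2 ribosomal genes and 1 mitochondrial gene rose. Of 13 genes of the mitochondrial genome 8 fell and 0 rose (median -1.24), led by mt-Nd4l (22140 to 37180 and 926.9 to 1688), which overlaps mt-Nd4, and mt-Nd6, which lies antisense to its neighbor; strand is not given in the sources used here, so both are uncertain too. The part of strain in the opposite changes of copies and parents was not tested.

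**Figure D3:**
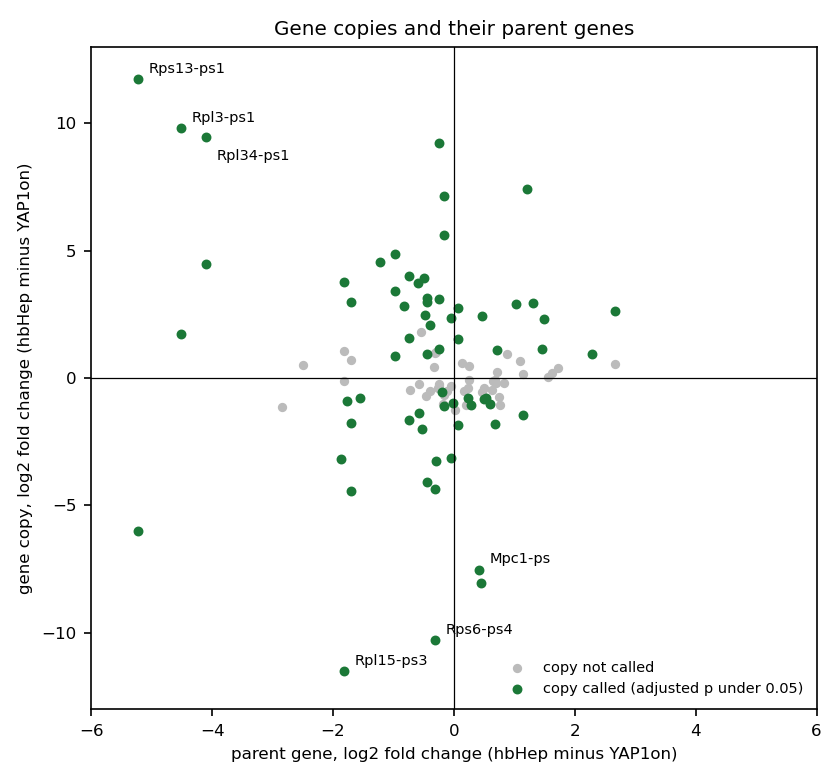
Each point is 1 gene copy with a -ps or -rs symbol: log2 fold change of its parent gene on the x axis and of the copy on the y axis, hbHep minus YAP1on tumors. Rps13-ps1, Rpl3-ps1 and Rpl34-ps1 lie at the top left, with a copy that is higher and a parent that is lower in hbHep.

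Outside the copies, the largest rises were Cyp4a12b, Cyp4a12a and Mup17, all male-biased in mouse liver and from families of near-identical members, and the largest falls Gvin1, Psca, Serpina1e and Fgfbp1. Psca, a surface antigen of some epithelia, was 550.2, 1026, 774.6 and 645.3 in tumors and 0.5665, 13.84 and 0.707 in hbHep (log2 -7.74, SE 0.70, adjusted p = 2.97e-07), and was already 1.12 in day 6 tumors. Fgfbp1, which releases fibroblast growth factors from matrix, was 1857, 3358, 2353 and 2087 and 12.26, 26.24 and 17.16 (log2 -6.97, adjusted p = 6.78e-10), with 145 in day 6 tumors. Gvin1, an interferon-inducible GTPase gene, was 1357 to 2256 in tumors and 0 to 14.56 in hbHep, and 6457 and 0 in day 6 tumors and FAH liver.

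Some genes were high in hbHep and low in every other group. Duoxa1 (chromosome 2, 122303540 to 122313763), the maturation factor of dual oxidase, was 2469, 1159 and 1812 in hbHep and 2.51, 1.291, 0.8758 and 3.408 in tumors, 1.572 in day 6 tumors and 4.572 in FAH liver (log2 9.24, SE 0.42, adjusted p = 2.83e-10). Its partner gene Duox1, which makes hydrogen peroxide, was 3015, 1040 and 3329 and 10.72, 12.08, 8.981 and 10.6 (log2 7.57, adjusted p = 8.4e-10). Acsm4, an acyl-CoA synthetase gene, was 873.6, 648.6 and 476.6 and 0 to 1.325. These 3 genes were picked after their values were seen. In the same way, Cryab, a small heat shock protein, Scube3, a secreted glycoprotein, Vgll3, a TEAD cofactor, and Scn7a, a sodium channel, were picked among the genes that fell. Vgll3 was 341.2, 733.8, 550.8 and 524.5 in tumors and 16.85, 6.244 and 6.235 in hbHep (log2 -5.73, SE 0.49, adjusted p = 1.85e-07), and Cryab, Scube3 and Scn7a fell by 5.24, 5.77 and 5.70.

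The log2 ratio of a form used by growing cells to its liver form within a sample does not depend on a scaling factor per sample. Of 12 pairs 6 had groups that did not overlap, each with an exact two-sided permutation p of 0.0286, the smallest possible, and an adjusted p over the 12 pairs of 0.0571, so that none passed. Among all tested single genes the groups did not overlap in 55.5%, so this count is not above that share. The log2 ratio of brain to liver glycogen phosphorylase, Pygb to Pygl, averaged -5.60 ± 0.04 in hbHep (SD, n = 3) and -2.98 ± 0.17 in tumors (n = 4). That of glycogen synthases Gys1 to Gys2 averaged -6.48 ± 0.50 and -2.82 ± 0.39. The fatty acid binding proteins Fabp5 to Fabp1 averaged -4.59 ± 2.20 and -1.44 ± 0.32. The ratio of Afp to Alb was higher in hbHep, at -4.16 ± 2.41 against -8.62 ± 0.51. Pkm to Pklr, the pyruvate kinases, overlapped (-0.74 to 1.08 in hbHep and 0.76 to 1.62 in tumors). Among the hbHep mice, mouse 2 had the highest ratio in all 12 pairs.

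**Figure D4:**
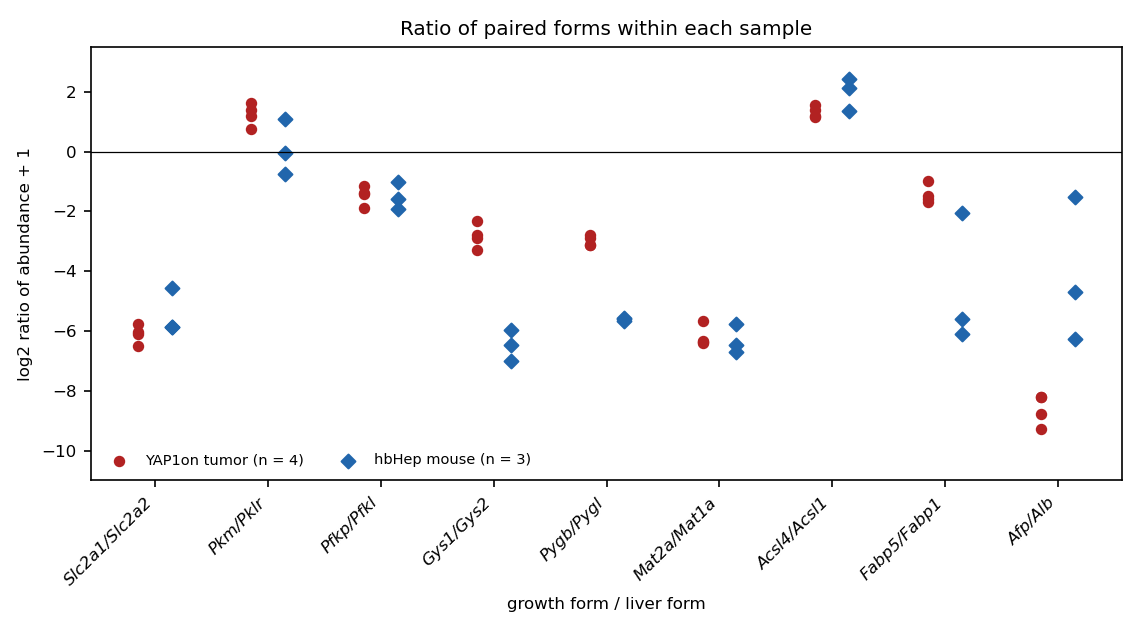
Log2 ratio of abundance + 1 of the growth form to the liver form of 9 pairs, for 4 YAP1on tumors (circles) and 3 hbHep mice (diamonds). The glycogen pairs Gys1/Gys2 and Pygb/Pygl lie lower in all hbHep mice, and Afp/Alb lies higher.

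Open chromatin, measured by ATAC-seq as the places where a transposase can cut, gave a readout from other libraries. There was 1 library labelled Yap On and 1 labelled Yap Off at day 64, not tied by their labels to the animals above, so no test was made. The deposited intervals, on mm10, were short in the Yap On list (829850 intervals, median 21 bases) and longer at day 64 (769500, median 70), so shares are compared within a list. At day 64 an interval lay over a gene start in 68.7% of 1655 genes higher in hbHep by at least 2-fold (95% Wilson interval 66.4 to 70.9), in 54.2% of 1581 lower genes (51.7 to 56.6) and in 65.8% of all 12466 genes with a known start. In the library of liver labelled WT, 62.2% of the higher genes (59.9 to 64.5) and 51.4% of the lower genes (49.0 to 53.9) had one. There the share of all genes was also 62.2%, so the higher genes lay at that share and only the lower genes lay below it. In the Yap On list the shares were 22.9% (20.9 to 25.0) of higher genes, 22.2% (20.2 to 24.3) of lower genes and 24.9% of all. These limits cover counting error only. Within 500 bases of a start, 7.40% of the lower genes, 1.21% of the higher genes and 2.66% of all had an interval in the Yap On list and none at day 64. The reverse held for 2.09% of the lower genes, 5.74% of the higher genes and 2.45% of all. Ankrd1, Fgfbp1, Krt7, Mmp7 and Spp1, which were lower in hbHep, had an interval in the Yap On list and none at day 64, but so did Dlk1 and Ngfr, which were higher. Nkd1, Cyp2a5, Cyp2f2, Igf2 and the Y-linked Ddx3y, which were higher, had one at day 64 and none in the Yap On list, but so did S100a8, Emcn and Cyp2c69, which were lower. These genes were picked after their intervals were seen. Eif2s3y and Uty, also Y-linked, had the same pattern as Ddx3y, and the sex of the animals behind these libraries is not given. Sex and YAP1 state cannot be told apart between these 2 lists.

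**Figure D5:**
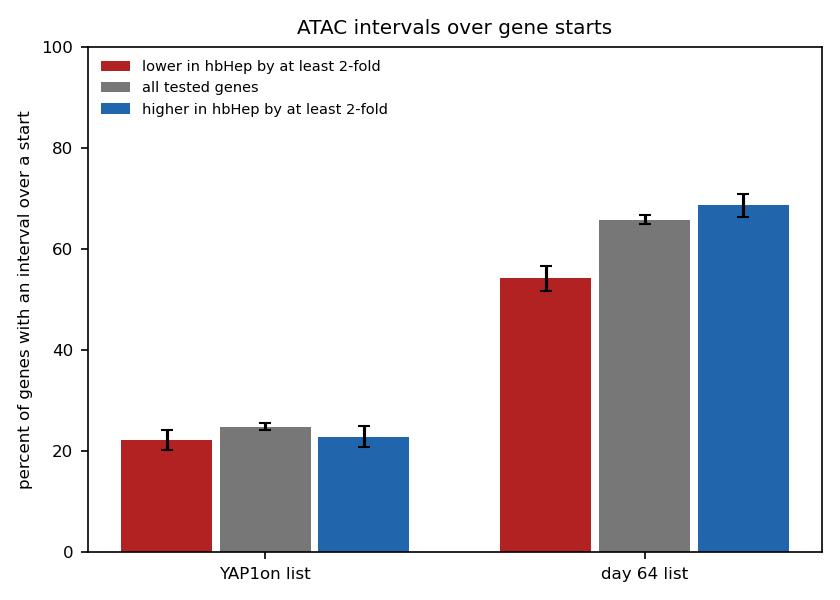
Percent of genes with a deposited ATAC interval over a start in the Yap On list (YAP1on) and the day 64 list, for genes lower in hbHep by at least 2-fold, all tested genes and genes higher by at least 2-fold; bars start at 0 and error bars are 95% Wilson intervals. At day 64 the lower genes stand at 54.2% and the higher genes at 68.7%.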

How the data were processed

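Total RNA came from liver, fresh or frozen in a flash, by Trizol and chloroform, per the labels' protocols. The authors deposited 1 table of signal values per gene and library, scaled between libraries and read here as scaled reads per base of transcript. Gene symbols were added from a separate reference list by gene identifier. bcl2fastq, kallisto 0.45.0 and sleuth, with build GRCm38.p6, are named in the submitters' processing notes; other versions, and any strand setting, are not stated in these sources. kallisto shares reads among similar transcripts, so single members of near-identical families are uncertain. Whole reads could not be recovered from the signal, so the depth is unknown. For ATAC the authors deposited interval lists with BWA, cutadapt, SAMtools and Picard on mm10 named in the notes; these do not name an interval caller.

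For each hbHep mouse the mean of its 2 technical libraries was used. Between all 14 samples of 4 groups, values were divided by median-of-ratios factors of 0.9632 to 1.1005 (17991 genes). Genes with at least 10 in at least 3 samples were tested on log2(abundance + 1) with limma 3.58.1 in R 4.3.3 (group means, eBayes with trend), so a fold change understates the change of low genes. Benjamini-Hochberg adjustment ran over all 17953 genes at a threshold of 0.05. The script was tested on simulated data. Single values and the 12 isozyme ratios had an exact two-sided permutation test.

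The 47 gene lists hold 943 genes, 938 of them in the table; Ahsp, H19, Meg3, Rian and Xist were not analysed here, and C5 and Hjv were matched as Hc and Hfe2. The samples, lists and tests were chosen with earlier results of these data known. Genes were named if marked as key in a list or part of an isozyme pair, if among the 3 largest rises or falls of a list, or if among the 10 largest rises or falls of all genes with a mean of at least 500 in the higher group; genes chosen after their values were seen are named as such. Motifs were searched in RefSeq promoter windows (GRCm38.p6). Alternatives were another pseudocount (0.1 or 10), no filter or a filter at 50, no rescaling, quantile normalization, a fit of these 2 groups alone, 1 technical library per mouse, eBayes without trend, a replicate block and each sample left out. Replicate numbers did not pair the samples. Some genes of the lists and pairs are counted but not reported here by name.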

Additional observations from a re-analysis of the deposited data

Results flagged for a closer look

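In some genes 1 of the 4 YAP1on tumors stood apart from the other 3, which chance gives in about 1 of 20 groups. The search covered the genes named in this report, about 200, so the cases below are no more than that rate gives. Where the other tumors are at 0, any value above 0 is flagged. Tumor 1 was the lowest for Bbc3 (47.3, against 68.11 to 69.95 in the others), Eno1 (2093, against 3157 to 3229) and Ppp1r3b (3481, against 5169 to 5496). It was the highest for Gm20594 (45.04, against 2.579 to 6.735) and Elovl3 (0.5912, with the others at 0). Tumor 3 was the highest for Slco1a1 (124.5, against 68.18 to 70.85) and Mup17 (0.9925, with the others at 0), and tumor 4 for Gm6768 (4.759, with the others at 0). All hbHep samples lay outside the range of the tumors for each of these genes.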

How the results depend on the processing

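With each sample left out in turn, 4615 to 4996 genes were higher and 4093 to 4409 lower, and 2377 to 2593 were higher and 2351 to 2508 lower by at least 2-fold. In those fits the log2 fold change stayed between -3.07 and -2.72 for Yap1, -1.39 and -1.17 for Ctnnb1 and -1.35 and -0.96 for Fah. Quantile normalization gave -3.51, -2.0 and -1.57 for these genes, outside those ranges. With the replicate block 4844 genes were higher and 4301 lower; the numbers only name the samples, since deviations of same-numbered samples correlated at 0.029, 0.045 and -0.053. Of the calls at 2-fold or more, 90.2% were shared with a fit of the first technical library of each mouse and 95% with one of the second. Part of that sharing is built in, because the main values are means of these libraries and all other samples are the same. The share of calls that were higher was 52.2%, 49.4% after quantile normalization and 57.9% without rescaling, which moved the median of all genes to 0.06. After quantile normalization 7 isozyme pairs passed instead of 0. The pair Slc2a1 to Slc2a2 joined the 6 pairs tied at the smallest possible p, as its difference went from 0.66 to 1.56. The adjusted p that tied pairs share depends on their number, and moved from 0.0571 to 0.049 (exact permutation test). The count is therefore a step of the adjustment and not a change in 7 pairs. The log2 fold change of Hspa5 reversed to -0.49 after quantile normalization, and the cause of that was not tested. In that setting more genes were also lower in the periportal (5), acute phase (11), interferon (7), clock (6), NRF2 (2) and ATF4 (2) lists and in the bile acid, pericentral, fatty acid oxidation and cholesterol lists (1 each), and Igf1 (-0.68), Hamp (-0.79), Cd74 (-1.23) and Arntl (-1.38) passed as lower while Rnf43 (0.09) and Egfr (0.42) did not pass. More genes were higher in the DNA replication (4), red blood cell (4) and Notch (2) lists, and fewer in the endothelial list (1). With the second technical libraries alone Alb (0.69), Arg1 (0.93), Cyp8b1 (1.66) and Otc (0.82) passed, and with the first alone Amotl1 (0.20), Ngfr (0.48), Egfr (0.58) and Glud1 (-0.31) did not. Without rescaling Wwtr1 (0.33) passed as higher and 3 Hippo genes were higher. A fit of hbHep and YAP1on tumors alone had 4710 genes higher and 4636 lower, of 17096 tested. Onecut1, Mup20, Egfr and Rnf43 did not pass in it (limma adjusted p = 0.0724, 0.062, 0.103 and 0.0714). Amotl1, Apc and Glud1 did not pass either (0.0643, 0.0891 and 0.0826). The main model took its spread also from day 6 tumors and FAH liver. Counted within 500 bases of a start, intervals were found for 82.5% of higher and 80.3% of lower genes in the Yap On list and 87.0% and 75.0% at day 64. With intervals of at least 150 bases, of which the Yap On list holds 5, these shares were 0 and 0 in that list and 14.3% and 8.03% at day 64. Leaving out a sample gave no pair count for the isozymes, because 2 against 4 or 3 against 3 samples cannot pass. The unknown number of reads limits low genes most.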
